A study of Mus musculus with 12 samples.

Results

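The 9 genes described here encode the machinery by which liver cells read interleukin-6 and its relatives: the receptor chains Il6ra, Il6st and Osmr, the kinases Jak1 and Jak2, the transcription factors Stat3, Cebpb and Cebpd, and the feedback inhibitor Socs3. They were chosen by symbol from the 54532 gene IDs of a mouse liver expression table, and each symbol matched 1 gene ID. All 9 were among the 10806 genes tested, which had at least 1 FPKM (fragments scaled to exon length and sequencing depth) in at least 3 of 12 libraries. Osmr met that limit only through 4 libraries of mice given dextran sulfate sodium (DSS), so a higher level with DSS was in part a condition of its being tested.

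Liver RNA was sequenced from mice of the inbred strain C57BL/6J, all wild type. There were 4 groups of 3 libraries: a diet given only as CD in the labels, with no further name (CD), a high-fat diet (HFD), and the same diets with 2% DSS (CD_DSS and HFD_DSS). DSS is a sulfated polysaccharide that injures the colon lining and is used to induce colitis. The labels give neither the age and sex of the mice nor the length of diet and DSS exposure. They also do not state that each library is a different animal, and the p-values below therefore reflect only how far apart these libraries lie, a spread that may be technical.

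Interleukin-6 binds its receptor (Il6ra), and the pair engages gp130, the product of Il6st, which is shared by the receptors for interleukin-11, oncostatin M and leukaemia inhibitory factor. Kinases of the JAK family bound to gp130 then phosphorylate STAT3, which enters the nucleus and switches on acute phase genes in hepatocytes. SOCS3 is itself a STAT3 target and blocks further signalling at gp130, and C/EBPβ and C/EBPδ are transcription factors that act on many of the same acute phase promoters.

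The promoters of Socs3 and Stat3, the genes with the largest averaged change with DSS below, are shown as the 250 bases before the transcription start given by RefSeq for GRCm38.p6, the assembly known as mm10. Both lie on the minus strand of chromosome 11, Socs3 at chr11:117969367-117969616 and Stat3 at chr11:100939541-100939790, and both are written 5′ to 3′ with the start site after the last base. Capitals mark the letters TTCNNNGAA, the core that STAT dimers are known to bind, and both strands were searched.
Socs3: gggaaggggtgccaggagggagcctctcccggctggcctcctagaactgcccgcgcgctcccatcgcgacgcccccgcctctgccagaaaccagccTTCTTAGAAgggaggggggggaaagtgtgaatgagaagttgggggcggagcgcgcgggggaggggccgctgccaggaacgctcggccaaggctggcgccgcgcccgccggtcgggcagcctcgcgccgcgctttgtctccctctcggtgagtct
Stat3: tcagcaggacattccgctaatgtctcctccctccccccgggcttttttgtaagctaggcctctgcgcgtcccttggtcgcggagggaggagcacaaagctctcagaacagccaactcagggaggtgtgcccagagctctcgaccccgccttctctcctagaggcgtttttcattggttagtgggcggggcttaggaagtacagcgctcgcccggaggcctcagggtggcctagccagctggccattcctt
The Socs3 window held 1 such match, TTCTTAGAA, whose first base lay 154 bases before the start, and the Stat3 window held none. A RefSeq promoter was matched for 8 of the 9 genes, all but Cebpd, and Socs3 was the only 1 of the 8 with the letters, against 7.02% of the 32851 mouse promoter windows of this length. The letters TTGCNNAA, the core recognised by C/EBP factors, were in 0 of the 8 windows and in 9.56% of all windows. A match in letters is a description of the sequence, and no binding was measured. The Socs3 window lies inside the GENCODE span of the gene (117966079 to 117970047, minus strand), so the RefSeq and GENCODE starts differ. The match, at 117969512 to 117969520, lies before the RefSeq start but not before the 5′ end of that span.

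Depth was 23.4 to 29.4 M fragments per library, as recovered from the FPKM values. The liver label was matched by hepatocyte markers, whose summed level was 31491 to 58708 FPKM, with none of the 8 at 0 in any library. On the first principal component of the tested genes (43.3% of the variance), 3 libraries stood between the others of the untreated and DSS groups: HFD 1 (−2.90), CD_DSS 1 (−4.75) and HFD_DSS 2 (7.64), against −21.7 to −19.1 for the other untreated and 21.7 to 30.9 for the other DSS libraries. Key results are therefore also given without these 3, a choice made after seeing the data. They are the untreated library nearest the DSS side and the DSS libraries nearest the untreated side. Leaving them out therefore widens the contrast of DSS with no DSS by construction. The larger numbers of calls without them are no independent support for an effect of DSS.

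The feedback inhibitor, the transcription factor STAT3 and the receptor chains rose with DSS in the liver. Averaged over the diets, 6 of the 9 genes rose: Socs3 5.15-fold, Stat3 1.66-fold, Il6ra 1.55-fold, Il6st 1.46-fold, Osmr 1.39-fold and Jak1 1.18-fold, and none fell. Folds are of FPKM + 1, so they understate the change of genes near or under 1 FPKM, and a gene was called at a limma adjusted p under 0.05. The same test called 20% of all genes tested, 8.72% higher and 11.2% lower. The median log2 fold change of the 9 genes was 0.47, against −0.01 for all genes tested. In 4 of the 9 (Socs3, Stat3, Il6st and Osmr) all 6 DSS libraries lay above all 6 untreated libraries, which was so for 2.74% of the genes tested. The opposite, all DSS libraries lower, was so for 3.85% of the genes tested and for none of the 9. Osmr is counted among both the 6 and the 4, although it passed the filter only through DSS libraries. In bulk tissue, fewer or more cells of a type and less or more RNA per cell cannot be told apart.

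**Figure D1:**
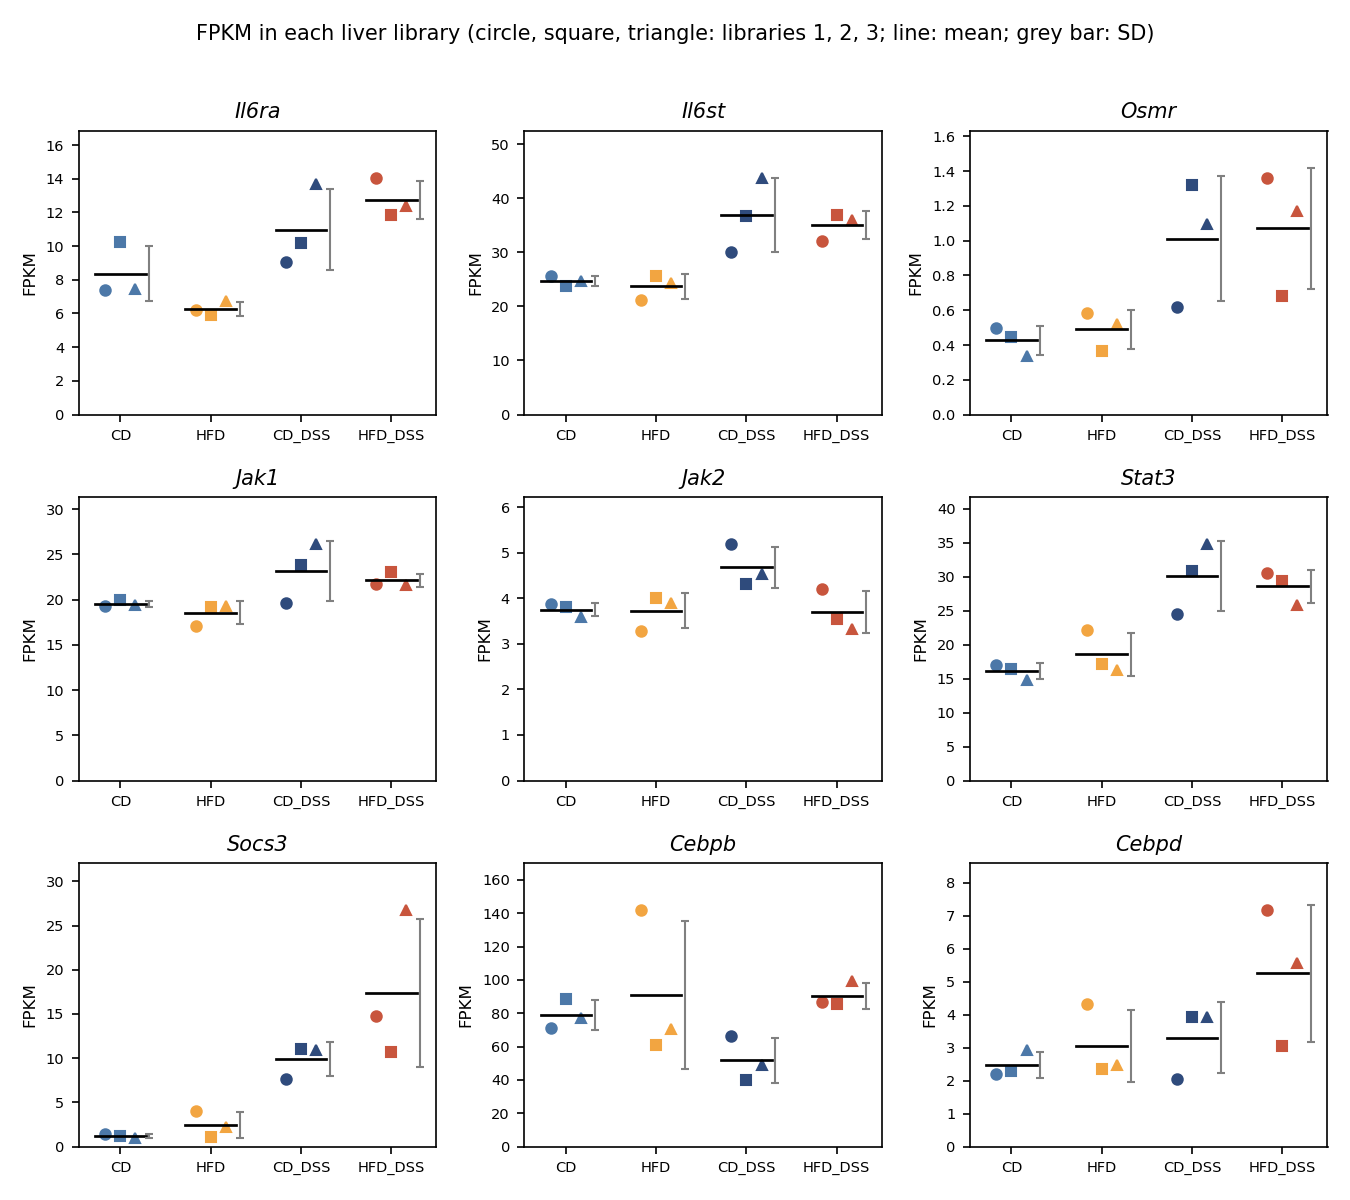
FPKM of the 9 genes (y axis, from 0) in each of the 12 libraries, by group (x axis). Points are libraries 1 to 3, black lines are group means and grey bars are ±1 SD. The DSS libraries of Socs3 sit between 7.67 and 26.7 FPKM and the untreated ones between 0.939 and 4.02 FPKM, while the CD_DSS libraries of Cebpb, at 39.9 to 66.2 FPKM, sit below the CD libraries.

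Il6ra (ENSMUSG00000027947, mm10 chromosome 3, 89864059 to 89913196, minus strand) encodes the chain that binds interleukin-6. Its level was 7.41, 10.3 and 7.44 FPKM in the CD libraries and 6.19, 5.91 and 6.72 in HFD. It was 9.04, 10.2 and 13.7 FPKM in CD_DSS and 14.0, 11.9 and 12.4 in HFD_DSS. The HFD_DSS libraries were all well above the HFD libraries, while CD 2 lay within the range of CD_DSS. On the high-fat diet Il6ra rose with DSS by a log2 fold change of 0.92 (SE 0.15, 95% confidence interval 0.59 to 1.24, limma adjusted p = 0.0121). On the CD diet the change was 0.35 (SE 0.15, interval 0.02 to 0.68, limma adjusted p = 0.188) and was not called.

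The means of Il6ra went from 6.28 ± 0.41 to 12.8 ± 1.13 FPKM on the high-fat diet and from 8.37 ± 1.63 to 11.0 ± 2.42 FPKM on the CD diet (SD, n = 3). The difference between the DSS effects, HFD minus CD, was 0.57 on the log2 scale (interval 0.11 to 1.03) with an adjusted p of 1.00 by limma, so a difference between the diets was not shown. The call on the high-fat diet was lost without HFD 2, HFD_DSS 1 or HFD_DSS 3 (limma adjusted p = 0.0675, 0.0611 and 0.0528). The call averaged over the diets (log2 fold change 0.63, SE 0.11, limma adjusted p = 0.00348) was kept without any 1 library.

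Il6st (ENSMUSG00000021756, chromosome 13, 112464070 to 112510086, plus strand) encodes gp130, the signalling chain, and had the highest level of the 3 receptor genes per kilobase. CD libraries had 25.6, 23.7 and 24.8 FPKM and HFD libraries 21.2, 25.6 and 24.4. CD_DSS libraries had 30.0, 36.7 and 43.7 FPKM and HFD_DSS libraries 32.2, 37.0 and 36.1. Every DSS library was above every untreated library. Group means were 24.7 ± 0.942, 23.7 ± 2.32, 36.8 ± 6.83 and 35.1 ± 2.55 FPKM for CD, HFD, CD_DSS and HFD_DSS (SD, n = 3).

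The log2 fold change of Il6st with DSS was 0.54 on the CD diet and 0.55 on the high-fat diet (SE 0.13 for both; limma adjusted p = 0.0382 and 0.0366). Both calls were near the threshold. They were lost without 8 and 10 of the 12 libraries left out in turn, with adjusted p up to 0.140 and 0.122 by limma, and under TPM scaling (adjusted p = 0.0593 and 0.0579). The call averaged over the diets (log2 fold change 0.54, SE 0.09, limma adjusted p = 0.00340) was kept without any 1 library.

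Osmr (ENSMUSG00000022146, chromosome 15, 6813577 to 6874969, minus strand) encodes the chain that pairs with gp130 to form the oncostatin M receptor. It was the lowest of the 9 genes, at 0.498, 0.447 and 0.335 FPKM in CD and 0.586, 0.368 and 0.519 in HFD. With DSS it was 0.617, 1.32 and 1.10 FPKM in CD_DSS and 1.36, 0.683 and 1.17 in HFD_DSS. CD_DSS 1 and HFD_DSS 2, which stood apart on the first component, were the lowest DSS libraries and still above all untreated ones. Averaged over the diets Osmr rose by 0.47 on the log2 scale (SE 0.11, limma adjusted p = 0.0147), a call kept without any 1 library. Because Osmr passed the filter only through DSS libraries, this call was in part a condition of its being tested. Within CD (0.48) and HFD (0.46) it did not pass (limma adjusted p = 0.103 and 0.112). Between 106 and 394 fragments per library lay behind these levels.

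Interleukin-6, interleukin-11, oncostatin M and leukaemia inhibitory factor transcripts were at or near 0 in liver RNA. Il6, which encodes interleukin-6, was listed at 0 FPKM in 9 of 12 libraries, and its highest level was 0.0482 FPKM in HFD 1, or 3 fragments. Il11 was listed at 0 in all 12 libraries, and Osm and Lif did not exceed 0.0609 FPKM. Of 9 cytokines of the gp130 family, only Ctf1 (cardiotrophin 1) passed the filter, with 2.15 ± 0.612 FPKM in CD and 1.63 ± 0.575 in HFD, and 1.72 ± 0.185 in CD_DSS and 1.94 ± 0.223 in HFD_DSS (SD, n = 3), with 45 to 127 fragments per library, and its change was not called.

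Among receptors of this and related cytokine families, the called changes were mixed. Of 13 receptors of gp130 and related cytokines, 11 were tested, and averaged over the diets 3 fell and 1 rose (median log2 fold change 0.17), while 8 of the 11 had a value above 0. The same test called 11.2% of all genes tested lower and 8.72% higher. Il11ra1, the interleukin-11 receptor chain, fell by 0.48 on the log2 scale (SE 0.06, limma adjusted p = 0.00153), Lifr, the leukaemia inhibitory factor receptor, by 0.59 (SE 0.14, limma adjusted p = 0.0167) and Ghr, the growth hormone receptor, by 0.66 (SE 0.13, limma adjusted p = 0.00618). Ifnar2, a chain of the type I interferon receptor, rose by 0.31 (SE 0.10, limma adjusted p = 0.0460), a call lost without 10 of the 12 libraries left out in turn.

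The level of Il11ra1 was 9.53, 9.28 and 8.71 FPKM in CD and 9.01, 8.54 and 7.38 in HFD, compared to CD_DSS values of 6.63, 6.73 and 6.15 FPKM and HFD_DSS values of 5.68, 5.94 and 4.80 FPKM. Every DSS library was below every untreated library, including the 3 that stood apart. Ghr likewise did not overlap, at 62.3 to 72.3 FPKM in the 6 untreated libraries and 34.0 to 54.6 in the 6 DSS libraries. All DSS libraries were below all untreated ones for 3.85% of the genes tested. Lifr was 45.4, 42.3 and 48.6 FPKM in CD and 29.2, 18.0 and 24.1 in CD_DSS, while HFD (32.7, 30.2 and 34.3) overlapped HFD_DSS (19.2, 34.7 and 30.0). All 3 fell in CD_DSS against CD (Lifr by 0.93, Ghr by 0.76 and Il11ra1 by 0.44 on the log2 scale; limma adjusted p = 0.0320, 0.0385 and 0.0263), and Il11ra1 alone was called in HFD_DSS against HFD (−0.52, limma adjusted p = 0.0156). Under TPM scaling the CD calls were lost (adjusted p = 0.0716, 0.0932 and 0.0737 by limma), as was the averaged call of Lifr (0.0524), with the same direction. Among all genes tested, 2.79% were called lower in CD_DSS against CD and 3.1% in HFD_DSS against HFD. None of these within-diet receptor calls was kept without each library in turn, and the 3 averaged falls were.

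Of 5 genes that govern cleavage of the interleukin-6 receptor from the cell surface, 2 rose averaged over the diets (median log2 fold change 0.17). The test called 8.72% of all genes tested higher in this comparison. Adam17, the protease that sheds the receptor, rose by 0.23 on the log2 scale (SE 0.05, limma adjusted p = 0.00795), from 3.52 to 3.93 FPKM over the 6 untreated libraries to 4.33 to 4.59 over the 6 DSS libraries. These ranges did not overlap, as for 2.74% of the genes tested in this direction, although the change was small. Rhbdf2, a cofactor for the maturation of that protease, rose by 0.66 (SE 0.17, limma adjusted p = 0.0201), a call lost without 3 of the 12 libraries left out in turn.

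Jak1 (ENSMUSG00000028530, chromosome 4, 101152367 to 101265282, minus strand) encodes the main kinase at gp130 and varied little. It had 19.3, 19.9 and 19.4 FPKM in CD, 17.1, 19.2 and 19.3 in HFD, 19.6, 23.9 and 26.1 in CD_DSS and 21.7, 23.0 and 21.6 in HFD_DSS. CD_DSS 1 lay within the CD range and the other 5 DSS libraries were above every untreated one. The averaged rise (log2 fold change 0.23, SE 0.07, limma adjusted p = 0.0393) was lost in 11 of 12 fits that left out 1 library, and kept only without CD_DSS 1 (limma adjusted p = 0.00522). Within the diets the changes were 0.23 and 0.24 for CD and HFD (limma adjusted p = 0.203 and 0.169).

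Jak2 (ENSMUSG00000024789, chromosome 19, 29251828 to 29313080, plus strand) encodes another kinase of the receptor complex. It had 3.87, 3.81 and 3.58 FPKM in CD and 5.18, 4.31 and 4.53 in CD_DSS, with no overlap, as for 12.6% of the genes tested, a log2 difference of 0.25 that was not called (limma adjusted p = 0.139). On the high-fat diet it had 3.29, 4.00 and 3.90 FPKM without DSS and 4.21, 3.54 and 3.33 with DSS, a difference of −0.01 (limma adjusted p = 0.955). Averaged over the diets the difference was 0.12 (interval −0.03 to 0.27, limma adjusted p = 0.228). Averaged over the diets the test called 8.72% of all genes tested higher and 11.2% lower. Of the 10 tested among 11 other JAK, STAT and adaptor genes, 2 rose in that comparison and none fell (median 0.09). They were Jak3, a kinase of blood cells, by 0.73 on the log2 scale (SE 0.16, limma adjusted p = 0.0111), and Stat2, a factor of the interferon response, by 0.43 (SE 0.12, limma adjusted p = 0.0340). The call of Jak3 was kept without any 1 library and that of Stat2 was lost without 8 of them.

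Stat3 (ENSMUSG00000004040, chromosome 11, 100885098 to 100939540, minus strand) encodes the transcription factor of the pathway. Its level was 17.1, 16.5 and 14.7 FPKM in CD and 22.2, 17.2 and 16.3 in HFD. With DSS it was 24.5, 30.7 and 34.7 FPKM in CD_DSS and 30.5, 29.3 and 25.9 in HFD_DSS. HFD 1 was the highest untreated library and CD_DSS 1 the lowest DSS library, and the 2 sets did not overlap. Means were 16.1 ± 1.21, 18.5 ± 3.19, 30.0 ± 5.15 and 28.5 ± 2.39 FPKM in CD, HFD, CD_DSS and HFD_DSS (SD, n = 3).

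Stat3 rose with DSS on both diets, by 0.85 on the log2 scale on the CD diet (SE 0.14, interval 0.54 to 1.16, limma adjusted p = 0.0127) and by 0.60 with high fat (SE 0.14, interval 0.29 to 0.92, limma adjusted p = 0.0375). The difference between these effects was −0.24 (interval −0.68 to 0.20) and was not called. On the CD diet the call was lost without CD 2, CD_DSS 2 or CD_DSS 3 (limma adjusted p = 0.0503, 0.0523 and 0.0637), and with high fat it was lost without 8 of the 12 libraries left out in turn, up to 0.155 without HFD 2. Averaged over the diets (0.73, SE 0.10, limma adjusted p = 0.00170) it was kept without any 1 library. The transcript was measured here, not the phosphorylated protein that acts in the nucleus.

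Socs3 (ENSMUSG00000053113, chromosome 11, 117966079 to 117970047, minus strand) showed the largest change of the 9 genes with DSS. Its level was 1.40, 1.22 and 0.939 FPKM in CD and 4.02, 1.04 and 2.23 in HFD. It was 7.67, 11.0 and 10.9 FPKM in CD_DSS and 14.7, 10.7 and 26.7 in HFD_DSS. Every DSS library was above every untreated library, with HFD 1 the highest untreated and CD_DSS 1 the lowest DSS library. Between 71 and 298 fragments lay behind the untreated levels and between 662 and 1847 behind the DSS levels.

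The order of the group means of Socs3 was CD (1.18 ± 0.230), HFD (2.43 ± 1.5), CD_DSS (9.88 ± 1.91) and HFD_DSS (17.4 ± 8.34 FPKM; SD, n = 3). Both neighbours that share a DSS state, CD with HFD and CD_DSS with HFD_DSS, overlapped and did not differ in the test. The averaged rise was 2.36 on the log2 scale (SE 0.24, interval 1.84 to 2.88, limma adjusted p = 0.000527). On the CD diet it was 2.31 (SE 0.33, limma adjusted p = 0.00772) and with high fat 2.42 (SE 0.33, limma adjusted p = 0.00978). The averaged and CD calls were kept without any 1 library, and the high-fat diet call was lost only without HFD 2 (limma adjusted p = 0.0566). The difference between the DSS effects was 0.12 with an interval of −0.92 to 1.16, which is wide enough to hold a difference of either sign.

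**Figure D2:**
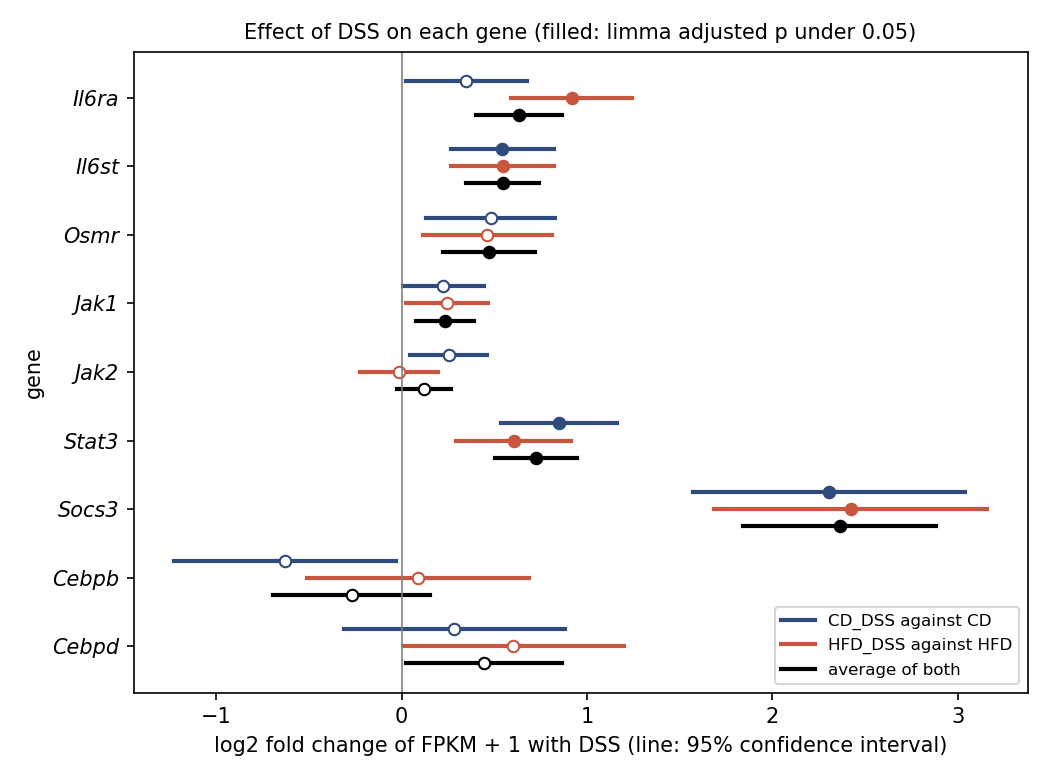
Log2 fold change of FPKM + 1 with DSS (x axis) for each gene (y axis) on the CD diet, on the high-fat diet and averaged. Lines are 95% confidence intervals and filled points have a limma adjusted p under 0.05. Socs3 lies at 2.31, 2.42 and 2.36, and Cebpb is the only gene whose averaged value is below 0 (−0.27).

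Other brakes on the pathway were largely not called. Of 15 tested among 16 feedback and negative regulators, 2 rose averaged over the diets and none fell (median log2 fold change 0.03). The test called 20% of all genes tested there, 8.72% higher and 11.2% lower. Ptpn1 and Ptpn2, phosphatases that act on JAK and STAT proteins, rose by 0.68 (SE 0.17, limma adjusted p = 0.0178) and 0.49 (SE 0.14, limma adjusted p = 0.0327). Ptpn1 kept its call without any 1 library, and Ptpn2 lost it without 9. The level of Ptpn1 was 5.19 to 9.58 FPKM over the 6 untreated libraries and 6.60 to 12.9 over the DSS libraries. Its highest untreated library was HFD 1 and its lowest DSS library CD_DSS 1.

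Cebpb (ENSMUSG00000056501, chromosome 2, 167688915 to 167690418, plus strand) encodes C/EBPβ and had the highest FPKM of the 9 genes. CD libraries had 71.3, 88.7 and 77.1 FPKM and CD_DSS libraries 66.2, 39.9 and 49.0. All CD_DSS libraries were below all CD libraries, as for 14.4% of the genes tested, but the log2 difference of −0.63 (SE 0.27, interval −1.23 to −0.03) was not called (limma adjusted p = 0.195). HFD libraries had 142, 60.7 and 70.5 FPKM and HFD_DSS libraries 86.8, 85.3 and 99.5. HFD 1 was far above the other HFD libraries, and the difference of 0.09 with DSS (limma adjusted p = 0.879) became 0.46 without it (limma adjusted p = 0.156).

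Between the DSS groups Cebpb was higher in all 3 HFD_DSS than in all 3 CD_DSS libraries, as for 7.53% of the genes tested, with a log2 difference of 0.82 (SE 0.27, interval 0.22 to 1.42, limma adjusted p = 0.298), which was not called. Without the 3 libraries that stood apart it was 1.05 (limma adjusted p = 0.0314), and with library weights 1.04 (limma adjusted p = 0.0393). The difference between the DSS effects was 0.72 (interval −0.13 to 1.56) and was not called. The sources used here do not state the counting strand, and 20.7% of the exon bases of Cebpb and 15.0% of those of Cebpd overlap exons of a gene on the other strand (Tmem189 and Spidr), so reads of these pairs cannot be told apart.

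Cebpd (ENSMUSG00000071637, chromosome 16, 15887286 to 15891031, plus strand) encodes C/EBPδ, which is known to be induced in the acute phase. Its level was 2.19, 2.28 and 2.92 FPKM in CD, 4.32, 2.36 and 2.47 in HFD, 2.05, 3.94 and 3.91 in CD_DSS and 7.16, 3.04 and 5.56 in HFD_DSS. The 3 libraries that stood apart were the highest HFD library and the lowest of each DSS group. The averaged log2 difference of 0.44 (SE 0.19) was not called (limma adjusted p = 0.125), nor were those within CD (0.28, limma adjusted p = 0.577) and HFD (0.60, limma adjusted p = 0.208). It was called without CD_DSS 1 (0.56, limma adjusted p = 0.0487), without HFD_DSS 2 (0.59, limma adjusted p = 0.0304) and without all 3 libraries (0.81, limma adjusted p = 0.000388).

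Of the 5 other C/EBP family genes, 2 rose averaged over the diets (median log2 fold change −0.04), where 8.72% of all genes tested were called higher. Ddit3, which encodes the stress-induced factor CHOP, rose by 1.22 (SE 0.19, limma adjusted p = 0.00287), from 1.83 to 3.26 FPKM over the untreated libraries to 3.86 to 11.7 over the DSS libraries, with no overlap, as for 2.74% of the genes tested. Cebpg, which encodes C/EBPγ, rose by 0.38 (SE 0.07, limma adjusted p = 0.00549). Both calls were kept without any 1 library. In HFD_DSS against HFD both were called (Ddit3 1.14, Cebpg 0.43; limma adjusted p = 0.0408 and 0.0375), and in CD_DSS against CD Ddit3 was called (1.31, limma adjusted p = 0.0261). Of all genes tested, 1.73% were called higher in HFD_DSS against HFD and 2.01% in CD_DSS against CD. None of these within-diet calls of Ddit3 and Cebpg was kept without each library in turn.

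**Figure D3:**
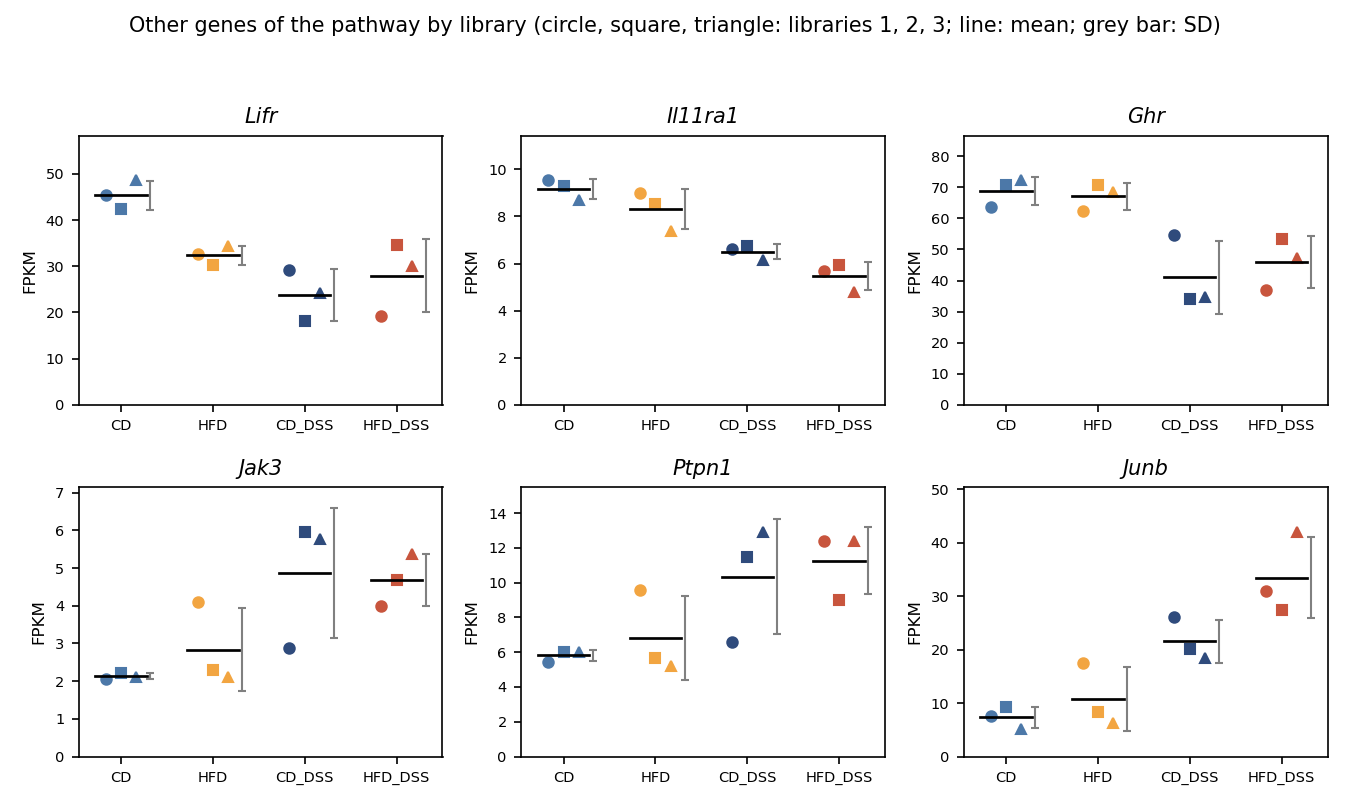
FPKM (y axis, from 0) by library and group (x axis) for 6 pathway genes that are not among the 9: 3 receptors that fell with DSS averaged over the diets (Lifr, Il11ra1, Ghr) and 3 genes that rose (Jak3, Ptpn1, Junb). Points are libraries 1 to 3, black lines are group means and grey bars are ±1 SD. The 6 DSS libraries of Il11ra1, at 4.80 to 6.73 FPKM, sit below the 6 untreated ones, at 7.38 to 9.53 FPKM.

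Genes that interleukin-6 and STAT3 are known to switch on in hepatocytes rose as a group, though not all of them in every DSS library. This list was chosen with earlier results of these data known, so its rise is no independent support for an effect of DSS. Averaged over the diets, 8.72% of all genes tested were called higher and 11.2% lower. Of 28 targets tested among 30, 20 rose, 1 fell and 7 were not called, with a median log2 fold change of 1.39 against −0.01 for all genes tested. The 6 with the smallest adjusted p were Junb, an immediate early transcription factor (1.55, SE 0.22, limma adjusted p = 0.00182), Itih4, an acute phase plasma protein (1.38, limma adjusted p = 0.00414), the fibrinogen chains Fga (1.26, limma adjusted p = 0.00434) and Fgg (1.21, limma adjusted p = 0.00535), and the metal-binding proteins ceruloplasmin, Cp (0.85), and metallothionein 2, Mt2 (4.60; limma adjusted p = 0.00573 for both). Of the exon bases of Mt2, 73.5% overlap Gm45774 on the other strand, so its value is uncertain, and it passed the filter only through the DSS libraries, since 2 of the 6 untreated libraries reached 1 FPKM. The gene that fell was Hamp, which encodes the iron hormone hepcidin and is named because it was the exception (−2.73, SE 0.77, limma adjusted p = 0.0296), a call lost without 6 of the 12 libraries left out in turn.

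Leaving out each library in turn kept 18 of these 21 calls throughout. Some called targets still overlapped by library. The lowest CD_DSS level of Serpina3n, 178 FPKM, lay within the CD range (147 to 191), as did that of Orm2, 9.99 FPKM (8.78 to 11.8). For Fga and Junb the lowest CD_DSS levels, 2540 and 18.4 FPKM, were above the highest CD levels, 1868 and 9.22 FPKM. Without the 3 libraries that stood apart 26 targets rose and 1 fell, with a median of 1.90, and of the 11 other receptors 4 rose and 3 fell. In that fit, averaged over the diets, 31.2% of all genes tested were called, 13.8% higher. Within the diets fewer passed: 2 targets rose in CD_DSS against CD (Junb 1.45 and Fga 1.24; limma adjusted p = 0.0289 and 0.0479; list median 1.28), and 7 in HFD_DSS against HFD (list median 1.51), namely Junb (1.64), Pim1 (1.04), Itih4 (1.48), Cp (0.94), Fga (1.28), Apcs (3.19) and Mt2 (4.84). In these 2 comparisons the test called 2.01% (CD) and 1.73% (HFD) of all genes tested higher. None of these within-diet target calls was kept without each library in turn. Of 26 targets with a RefSeq promoter, 8 (30.8%) held TTCNNNGAA within 250 bases before the start, against 8.13% of all genes with a window: Agt, Apcs, Fga, Fgb, Hamp, Icam1, Itih4 and Steap4, the group including both the gene that fell and genes that rose.

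Within the diets, 3 of the 9 genes rose in CD_DSS against CD (Socs3, Stat3 and Il6st), where the same test called 4.8% of all genes tested, 2.01% higher and 2.79% lower. In HFD_DSS against HFD, 4 rose (Socs3, Stat3, Il6ra and Il6st), against 4.83% of all genes tested, 1.73% higher and 3.1% lower. The comparisons use separate control groups. Without the 3 libraries that stood apart, 7 of 9 genes were called on each diet, 6 higher and 1 lower (Cebpb) on the CD diet, where 17.8% of all genes were then called, and 7 higher on the high-fat diet, where 18.8% were. Averaged over the diets 7 were then called, against 31.2% of all genes. With library weights 6 were called on each diet, where 24.0% (CD) and 26.1% (HFD) of all genes were then called.

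Diet alone changed none of the 9 genes by the test. In HFD against CD, limma called 0 of them (1 had an unadjusted p under 0.05, and voom on the recovered fragments also called 0), and 0.00925% of all genes tested were called. The largest differences were Socs3, 0.56 on the log2 scale (interval −0.17 to 1.30, limma adjusted p = 0.840), and Il6ra, −0.35 (interval −0.68 to −0.03, limma adjusted p = 0.700). All 3 HFD libraries of Il6ra were below all 3 CD libraries, which held for 6.54% of the genes tested (6.58% in the other direction). The Socs3 difference rested in part on HFD 1 and was 0.24 without it.

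Between the DSS groups, HFD_DSS against CD_DSS, limma also called 0 of the 9 genes (2 had an unadjusted p under 0.05, and voom called 0), with 0.102% of all genes tested called, 0.037% higher and 0.0648% lower. Socs3 was 0.68 higher on the log2 scale (interval −0.06 to 1.41, limma adjusted p = 0.497) and Cebpd 0.52 higher (interval −0.08 to 1.11, limma adjusted p = 0.528). The Socs3 difference was 0.33 without HFD_DSS 3, and the Cebpd difference was 0.29 without either CD_DSS 1 or HFD_DSS 1. Jak2 was lower in all 3 HFD_DSS libraries than in all 3 CD_DSS libraries, by −0.28 (interval −0.49 to −0.07, limma adjusted p = 0.311), which held for 8.97% of the genes tested in that direction. For the difference between the DSS effects, limma called 0 of the 9 (1, Il6ra, had an unadjusted p under 0.05, and voom called 0) and 0.00925% of all genes tested, and the Jak2 difference was −0.27 (interval −0.56 to 0.03).

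Socs3 and Stat3 did not follow the serum amyloid gene Saa1, the classic acute phase transcript of hepatocytes, in every library. Saa1, named here after its values were seen, had 9.14 FPKM in CD_DSS 1, below all 3 CD libraries (15.0, 49.2 and 32.8), against 595 and 483 in CD_DSS 2 and 3. In that library Socs3 (7.67 FPKM) and Stat3 (24.5 FPKM) were still above every untreated library. In HFD 1, Saa1 had 579 FPKM, within the range of the DSS libraries, against 19.9 and 22.4 in HFD 2 and 3, and Socs3 (4.02 FPKM) was below every DSS library. In HFD_DSS, Saa1 had 1104, 191 and 2670 FPKM. The averaged log2 difference of Saa1 was 2.95 (SE 1.16, limma adjusted p = 0.0963) and was not called.

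**Figure D4:**
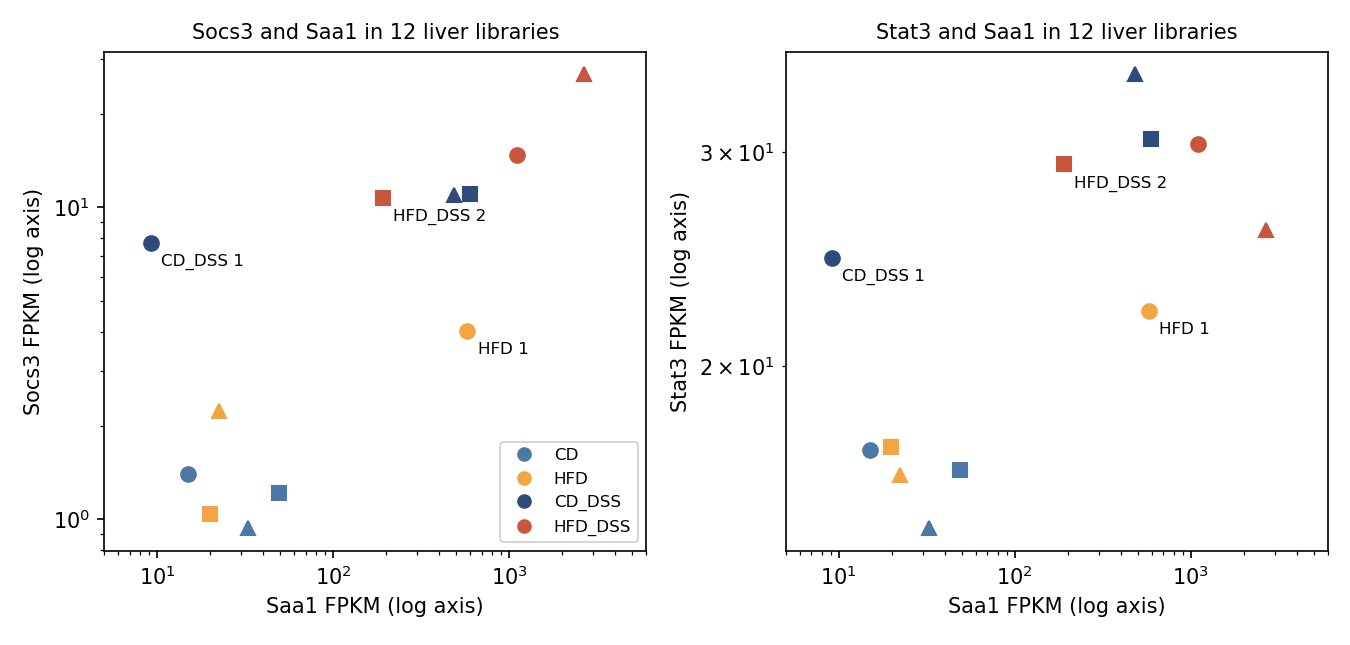
FPKM of Socs3 (left) and Stat3 (right) against FPKM of Saa1, all on log axes, with 1 point for each of the 12 libraries coloured by group. CD_DSS 1 lies at the lowest Saa1 level, 9.14 FPKM, with Socs3 at 7.67 FPKM, and HFD 1 lies at 579 FPKM of Saa1 with Socs3 at 4.02 FPKM.

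Markers of other cell types varied with some of these results. The summed level of 10 Kupffer cell and macrophage markers was 226 to 292 FPKM in CD, 244 to 382 in HFD, 271 to 502 in CD_DSS and 337 to 488 in HFD_DSS, none was at 0, and 5 of the 10 rose averaged over the diets (Adgre1, Marco, Timd4, Cd5l and C1qb). The test called 8.72% of all genes tested higher there. All 10 of these markers had a value above 0 and an unadjusted limma p under 0.05 (median log2 fold change 0.54). Of the 5 calls, 2 (Marco and Timd4) were kept without any 1 library, and the same 2 with the replicate number as a block. The 8 neutrophil markers summed to 1.91 to 3.44 FPKM in CD, 2.01 to 24.5 in HFD (24.5 in HFD 1), 4.16 to 24.4 in CD_DSS (4.16 in CD_DSS 1) and 5.74 to 58.8 in HFD_DSS (5.74 in HFD_DSS 2). Ly6g was at 0 in every untreated library and Mpo did not exceed 0.125 FPKM, and of 4 neutrophil markers tested limma called none, although all 4 had a value above 0 and an unadjusted p under 0.05 (median log2 fold change 1.17). These 4 had under 1 FPKM in most untreated libraries and passed the filter through the DSS libraries and at most 2 untreated ones. Without the 3 libraries that stood apart, all 4 neutrophil markers (median 2.04) and all 10 Kupffer cell and macrophage markers (median 0.78) rose averaged over the diets, where 13.8% of all genes tested were called higher. Their part in the rise of Socs3, Jak3 and the other genes was not tested.

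The remaining lists were low or held 1 or 2 called genes. The 6 T and NK cell markers summed to 0.762 to 2.53 FPKM and the 4 B cell markers to 0.597 to 1.56 FPKM over the 12 libraries, and none passed the filter. Sinusoidal endothelial markers summed to 67.5 to 114 FPKM (2 of 7 rose averaged over the diets), stellate markers to 34.5 to 57.3 FPKM (1 of 7 rose) and cholangiocyte markers to 17.6 to 41.8 FPKM (1 of 3 tested rose). Averaged over the diets the test called 8.72% of all genes tested higher. The cholangiocyte gene that rose was Sox9, by 0.91 on the log2 scale (limma adjusted p = 0.000130), a smaller adjusted p than that of Socs3. Its calls on both diets and averaged were kept without any 1 library. Of 8 hepatocyte markers, 2 fell (Apoa2 and Fabp1) and none rose, where 11.2% of all genes tested were called lower. Both calls were lost in some fits that left out 1 library. They were also lost under TPM scaling (limma adjusted p = 0.0668 and 0.0715) and with the replicate number as a block (limma adjusted p = 0.0594 and 0.0518).

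The genes whose levels most resembled Socs3 over the 12 libraries were Cxcl1, a chemokine that attracts neutrophils (Pearson r 0.981, Spearman rho 0.965), the secreted ribonucleases Rnase4 (0.967 and 0.944) and Ang (0.965 and 0.958), Fgd2 (0.961 and 0.867) and Ttpal (0.959 and 0.888). Cxcl1 had 1.22, 1.46 and 0.408 FPKM in CD, 8.13, 0.572 and 0.999 in HFD, 14.9, 21.6 and 18.9 in CD_DSS and 53.4, 14.6 and 70.9 in HFD_DSS. Like Socs3, it was high in CD_DSS 1 and lower in HFD 1 than in any DSS library. Among the 9 genes, Stat3 (0.895 and 0.839) and Osmr (0.891 and 0.979) were closest to Socs3, followed by Il6st (0.796), Il6ra (0.773), Cebpd (0.719) and Jak1 (0.632), and Jak2 (0.136) and Cebpb (−0.03) were not alike. These values describe libraries that share the contrast of DSS with no DSS, were picked for their size, and carry no test.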

How the data were processed

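Liver RNA of 12 libraries was sequenced from SMARTer mRNA-seq libraries after Qiagen RNeasy extraction, per the labels' protocols. The authors deposited FPKM, fragment numbers scaled to gene length and depth, in 1 column per library. Reads were placed on mm10, per the submitters' processing notes. The sources used here name no aligner, counter, strand setting or version. The table also held 4 columns with no name, which were not used. Symbols, positions and exon lengths came from the GENCODE annotation of mm10 (99.9% of gene IDs matched). FPKM multiplied by exon length gave fragments: under 500 fragments, 97.0 to 97.3% of values lay within 0.02 of a whole number. Median-of-ratios factors were the same in all 12 columns, so the deposited values already carry that scaling. Overlap between genes and strand were not resolved, which affects genes with antisense partners.

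Groups were taken from the labels. Values were analysed as log2(FPKM + 1) for the 10806 genes that reached 1 FPKM in 3 or more libraries. Limma 3.58.1 (R 4.3.3) fitted 1 model with a mean for each of the 4 groups (variance trend, two-sided), adjusted by Benjamini-Hochberg over all genes tested with a threshold of 0.05, for 6 comparisons. The script was tested on simulated data. The members, the 7 pathway lists, the 8 marker lists and the tests were chosen with earlier results of these data known. Named genes are the 9 members, up to 6 called members per pathway list and comparison by smallest adjusted p, and the 5 genes most like Socs3. Saa1, Hamp, the seventh target named in HFD_DSS against HFD, single cytokines and marker genes were named after their values were seen. So were the targets whose CD_DSS and CD levels are compared. Alternatives were a pseudocount of 0.1, no filter, TPM and median-of-ratios scaling, a fit of 2 groups alone, library weights, the replicate number as a block, voom on recovered fragments, and leaving out each library. Leaving out the 3 libraries that stood apart was added after seeing the data. Protein sequences were not used here.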

Additional observations from a re-analysis of the deposited data

How the results depend on the processing

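Of 784 recomputed values (38 log2 fold changes of the 9 genes under 21 alternatives, less 14 values that the fit of 2 groups alone cannot give), 696 kept their direction and side of the threshold, 55 lost and 21 gained a call, and 12 changed sign. Of 1058 recomputed values of pathway genes, 838 were the same in that sense, 213 lost a call, 7 gained one and none changed sign. Both tallies include values with little room to differ. Median-of-ratios scaling had the same factor in every library and nearly repeats the main fit. Leaving out a library of a group outside a comparison leaves the log2 fold change as it was, and only the p-value can move. The sign changes were in values that were not called. For Jak2 in HFD_DSS against HFD they were 0.0107 under TPM scaling, and 0.0299, 0.0144, 0.00911 and 0.0436 without HFD 2, HFD 3, HFD_DSS 2 and HFD_DSS 3 (range over libraries left out −0.0900 to 0.0436). For Cebpb in the same comparison they were −0.146 and −0.0404 without HFD 2 and HFD 3 (range −0.146 to 0.459). For the Socs3 difference between DSS effects they were −0.0839 with a pseudocount of 0.1, −0.133 with voom, and −0.0388, −0.210 and −0.227 without CD_DSS 1, HFD 2 and HFD_DSS 3 (range −0.227 to 0.439). The cause was not tested.

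The number of the 9 genes called in CD_DSS against CD was 3, and it was 2 with 2 groups alone, 2 under TPM scaling, 2 with no filter, 6 with library weights, 7 without the 3 libraries that stood apart, and 1 to 5 when 1 library was left out. In HFD_DSS against HFD it was 4, and it was 2 with 2 groups alone, 2 with no filter, 6 with library weights, 7 without the 3 libraries, and 0 to 4 when 1 library was left out, with 0 without HFD 2. Averaged over the diets it was 6, and 5 to 7 when 1 library was left out. In HFD_DSS against CD_DSS it was 0, and 1 (Cebpb) with library weights or without the 3 libraries. It was 0 in HFD against CD and in the difference between DSS effects under every alternative run, and 0 in these and HFD_DSS against CD_DSS when 1 library was left out.

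The genes called of all tested in CD_DSS against CD, in HFD_DSS against HFD and averaged were 519, 522 and 2157. They were 2592, 2820 and 4259 with library weights, 1924, 2027 and 3372 without the 3 libraries, 363, 333 and 1805 under TPM scaling, and 157, 130 and 1514 with no filter. With the replicate number as a block they were 290, 278 and 1836. The fit of 2 groups alone gave 220 and 122 within the diets.

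The replicate numbers did not pair the libraries: 5 of 18 same-numbered pairs correlated over 0.1, and 2 libraries matched best with their own number. With the replicate block, 3 of the 9 genes were called in CD_DSS against CD, 3 in HFD_DSS against HFD (Stat3 lost) and 6 averaged. It changed no other call of the 9 genes, and 12 pathway gene calls were lost. The 3 libraries a group, and 106 fragments at the lowest for Osmr, limit the precision of these values.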
